A study of Mus musculus with 8 samples.

Results

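The genes described here are Myc, its dimer partner Max, and genes that build ribosomes in the nucleolus: 41 members of the 18193 genes that have a probe set of their own on the array. Members were taken by gene symbol, and each gene was read from its brightest probe set by mean level over the 8 arrays, among those naming only that gene. The list names genes of known function and was chosen with earlier results of these data known. Shares of members set beside shares of all genes are therefore descriptions. Pprc1 was chosen by its measured level, which was lower after ionizing radiation (IR). Its values are a description with no test, and counts are over the other 40 members. Gene expression was measured in CD3+CD8+CD44+CD62L- T cells, the antigen-experienced phenotype, sorted from subcutaneous MC38 colon carcinomas or from lymph nodes (LN) of tumor-bearing mice. All mice were C57BL/6 females aged 6 to 8 weeks, and the LN groups carried the tumor too. T cells of each tissue came from mice with or without IR, in 4 groups of 2 arrays, and the IR groups had received 5 Gy to the whole body 5 h before organs were taken. Each array held RNA pooled from 4 mice. The design lists 2 experiments of 4 samples, but the labels do not tie a replicate number to an experiment, and p-values measure the spread between these pools. LN were inguinal and axillary nodes, draining and not draining the tumor, and were disrupted mechanically. Tumors were digested with Liberase TM and DNase I and spun in Percoll. Tumor suspensions were also enriched for CD8+ T cells with a positive selection kit before sorting. Tissue and way of preparation cannot be told apart in these groups.

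MYC is a transcription factor that binds DNA as a dimer with MAX, most often at E-boxes, and in activated lymphocytes it drives growth in cell size. Much of that growth is ribosome production: RNA polymerase I transcribes the ribosomal RNA precursor in the nucleolus, small nucleolar RNPs modify it, and large assemblies of nucleolar proteins cut and fold it into the small and the large subunit. Many genes for these proteins are known MYC targets, and ribosome production is known to respond to DNA damage.

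The sequences below show where the canonical E-box CACGTG lay in the promoters of members, because the genes were gathered as MYC-linked. A window ran from 250 bases before to 50 bases after the annotated start in RefSeq (GRCm38.p6). Of 36 members with a window, 9 held the motif (25%), against 2187 of 27025 genes with a window (8.09%) and 12 of 66 other ribosome biogenesis genes (18.2%). CACGTG is its own reverse complement, so both strands give the same matches, and a match is a description of letters and not a site. All 10 matches follow, 5′ to 3′ on the strand of the gene, with CACGTG in capitals.
Nop2, at chr6:125131811-125131840: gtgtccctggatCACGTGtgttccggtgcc
Ltv1, at chr10:13193092-13193121: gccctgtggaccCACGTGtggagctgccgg
Utp20, at chr10:88826765-88826789: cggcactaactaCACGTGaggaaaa
Pes1, at chr11:3963965-3963994: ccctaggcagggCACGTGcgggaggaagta
Mybbp1a, at chr11:72441355-72441376: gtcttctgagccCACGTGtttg
Tsr1, at chr11:74898092-74898121: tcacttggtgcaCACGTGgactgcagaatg
Max, at chr12:76962234-76962263: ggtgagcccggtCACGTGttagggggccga
Rrn3 (upstream match), at chr16:13780472-13780501: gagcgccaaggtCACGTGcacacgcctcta
Rrn3 (downstream match), at chr16:13780639-13780668: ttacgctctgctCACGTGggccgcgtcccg
Wdr43, at chr17:71616220-71616249: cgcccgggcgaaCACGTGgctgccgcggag

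Myc, Npm1, Fbl, Rrp12 and Bop1 were not in the promoter table. Rrn3 was the member with 2 matches, whose first bases lay at -215 and -48 from the start. Polr1b and Gnl3, the members with the lowest log2 differences after IR in LN T cells, had no match, and the 250 bases before their starts are shown for comparison.
Polr1b, at chr2:129100746-129100995 (plus strand): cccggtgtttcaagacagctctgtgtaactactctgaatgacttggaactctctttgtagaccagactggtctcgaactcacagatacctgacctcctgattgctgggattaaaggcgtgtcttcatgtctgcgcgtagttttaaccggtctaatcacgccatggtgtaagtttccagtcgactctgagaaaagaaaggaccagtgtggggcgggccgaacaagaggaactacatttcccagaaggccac
Gnl3, at chr14:31019132-31019381 (minus strand): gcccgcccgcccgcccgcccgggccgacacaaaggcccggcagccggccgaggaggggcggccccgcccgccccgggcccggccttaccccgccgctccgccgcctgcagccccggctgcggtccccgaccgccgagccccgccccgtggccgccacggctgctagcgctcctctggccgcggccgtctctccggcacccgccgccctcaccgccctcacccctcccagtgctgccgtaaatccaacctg

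Values are log2 intensities, so a difference of 1 is a doubling or a halving, and a gene rose or fell only where it had a limma adjusted p under 0.1 together with a log2 difference of at least 1. Of 11 measured T cell markers the 2 brightest, Cd3e and Cd8a, were at 12.09 or above on all 8 arrays. The mean of the 11 ran from 11.08 to 11.79 per array. The tumor arrays also carried macrophage and monocyte transcripts, with 13 of 14 measured markers higher than in LN without IR. The mean of those 14 markers was 6.44 to 6.94 on the LN arrays. In tumor it was 10.62 and 11.30 without IR and 9.25 and 10.61 with IR. In a bulk sample, fewer cells of a type and less RNA per cell cannot be told apart. The second LN array with IR stood apart from its partner. Over 18193 genes the arrays of a pair correlated at 0.982 in LN without IR, 0.966 in LN with IR, and 0.993 and 0.992 in tumor without and with IR. Of 40 members, 39 were lower on the second LN array with IR than on the first, with a median gap of 0.56. On that array 19 cell cycle genes averaged 9.05 against 10.53 on its partner, and 11 T cell genes 11.09 against 11.48. The members' medians that rest on it are therefore given with and without it. Many values of single genes and lists are given with all arrays alone and rest on it too. Its part in the member values beyond that was not tested.

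After IR the ribosome biogenesis genes stood lower in LN T cells. Of 40 members, 0 rose and 3 fell: Polr1b, Gnl3 and Tsr1. Over all 18193 genes 0.264% fell by that rule and 1.05% changed in either direction. The count depended on the fit: 11 fell, Myc and Dkc1 among them, with a robust linear model (2.77% of all genes called), and 0 with the LN arrays fitted alone (0% of all genes by limma, 17 members with an unadjusted p under 0.05). The log2 difference was below 0 for 37 members against 49.1% of all genes, and the median was -0.72 against 0.0067 over all genes. An unadjusted p under 0.05 with a lower level was reached by 29 of 40 members, against 9.22% of all genes. For 31 members both arrays with IR lay below both arrays without it, against 19.5% of all genes. Without the second LN array with IR, 36 members still had negative differences, but the median was -0.40, 18 members had an unadjusted p under 0.05 with a lower level, and 2 fell (Gnl3 and Polr1b, against 1.42% of all genes called). Without the first LN array with IR the median was -1.01 and 20 members fell, against 9.83% of all genes called. Leaving out either LN array without IR left 0 members called, and leaving out any of the 4 tumor arrays left Polr1b as the member called.

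**Figure D1:**
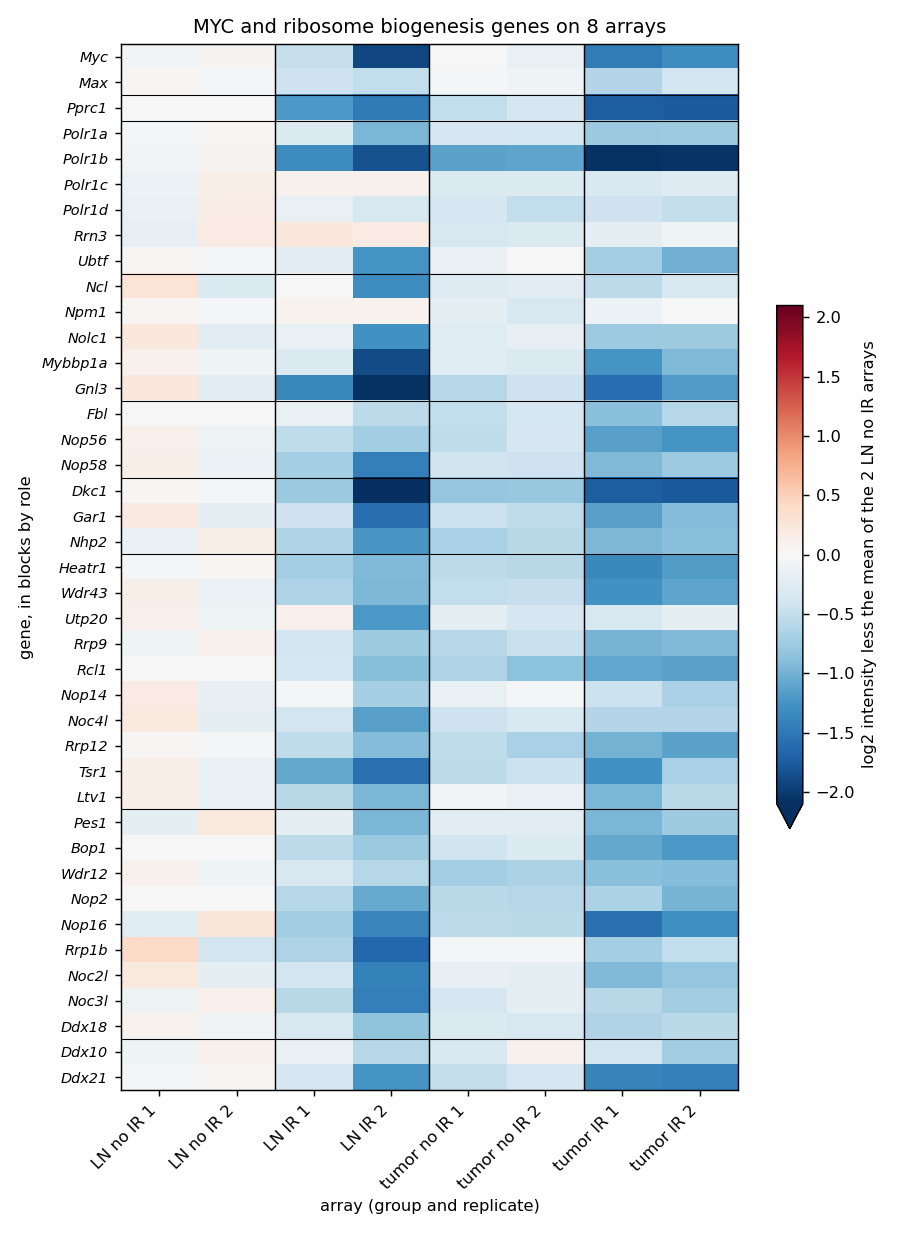
Level of the 41 genes (rows, in blocks by role) on the 8 arrays (columns), as log2 intensity relative to the average LN array without IR; blue is lower and red higher. Most rows are bluer on the IR arrays of both tissues, 22 of the 40 tested genes are lowest on the second LN array with IR, and Npm1, Polr1c and Rrn3 are not lower with IR in either tissue.

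In tumor T cells the differences ran the same way. No member was called in tumor T cells (0 of 40 by limma at the same rule, 0.0989% of all genes changed), while 15 members had an unadjusted p under 0.05, each with a lower level, against 5.16% of all genes. Of 40 members, 36 had a log2 difference below 0 (40.3% of all genes), and the median was -0.46 against 0.090 over all genes. The LN median of -0.72 was larger in size with all arrays, and at -0.40 it was smaller without the second LN array with IR. For 35 members both arrays with IR lay below both without (26% of all genes). A log2 difference of -1 or lower was reached by 11 members in LN (1.87% of all genes) and by 1, Myc, in tumor T cells (0.808%). Without the second LN array with IR the 11 became 3 (0.61% of all genes). The same 36 members were negative in both tissues, against 29.7% of all genes, and 31 had no overlap between arrays in both, against 10.6%. The tissues have no array in common, but the labels do not say whether their pools came from the same mice. Utp20 was negative in LN alone. Npm1, Polr1c and Rrn3 were positive in both. Beside these differences, 13 of 14 macrophage and monocyte markers and 11 of 11 T cell markers were also lower in value with IR in tumor samples, and 0 of either list was called. The part of those shifts in the member values was not tested.

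**Figure D2:**
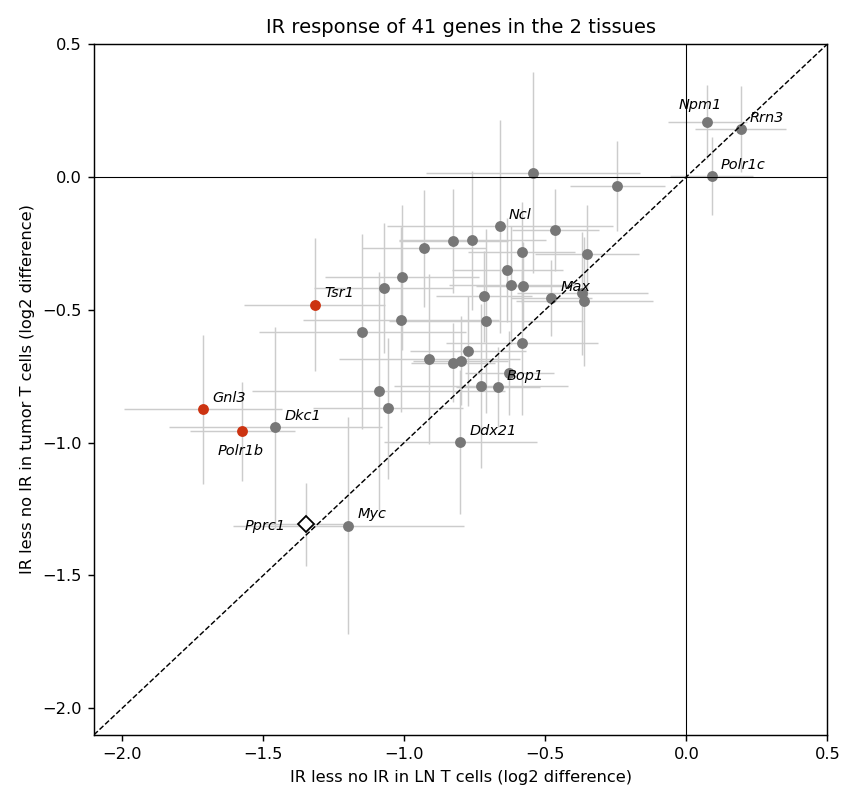
Log2 difference between IR and no IR for each gene in LN T cells (x axis) and tumor T cells (y axis), with bars of 1 standard error; red points are the 3 genes that fell in LN T cells, the diamond is Pprc1, and the dashed line marks equal differences. Of the 40 tested genes 36 lie in the lower left quadrant and 30 lie above the dashed line, where the LN difference is the lower; without the second LN array with IR 24 would lie below it.

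Myc itself was at a similar level in both tissues without IR. It read 9.73 and 9.85 on the LN arrays and 9.79 and 9.64 on the tumor arrays, which overlapped (log2 difference tumor less LN -0.07, 95% CI -1.03 to 0.89, limma adjusted p = 0.948). With IR it read 8.32 and 8.48 in tumor T cells, both under the arrays without IR, and the log2 difference of -1.31 (95% CI -2.27 to -0.35, adjusted p = 0.296) did not pass. It was the largest negative difference among the 40 members in tumor T cells. In LN T cells with IR Myc read 9.31 and 7.87, both under the arrays without IR and the second far more so. The log2 difference there was -1.20 (SE 0.41, adjusted p = 0.258), -0.48 without the second LN array with IR and -1.92 without the first. With the first or the second LN array with IR left out, Myc was called in tumor T cells at the same log2 difference (90 of 18193 genes, 0.495%, were then called there). Max, the partner that MYC needs to bind DNA, varied less between arrays. It was 9.28 ± 0.05 in LN without IR and 8.80 ± 0.05 with IR (mean ± SD, n = 2 arrays). Max in tumor T cells was 9.22 ± 0.04 without IR and 8.77 ± 0.15 with IR. Its LN difference of -0.48 (adjusted p = 0.212) and its tumor difference of -0.46 (adjusted p = 0.296) did not pass.

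**Figure D3:**
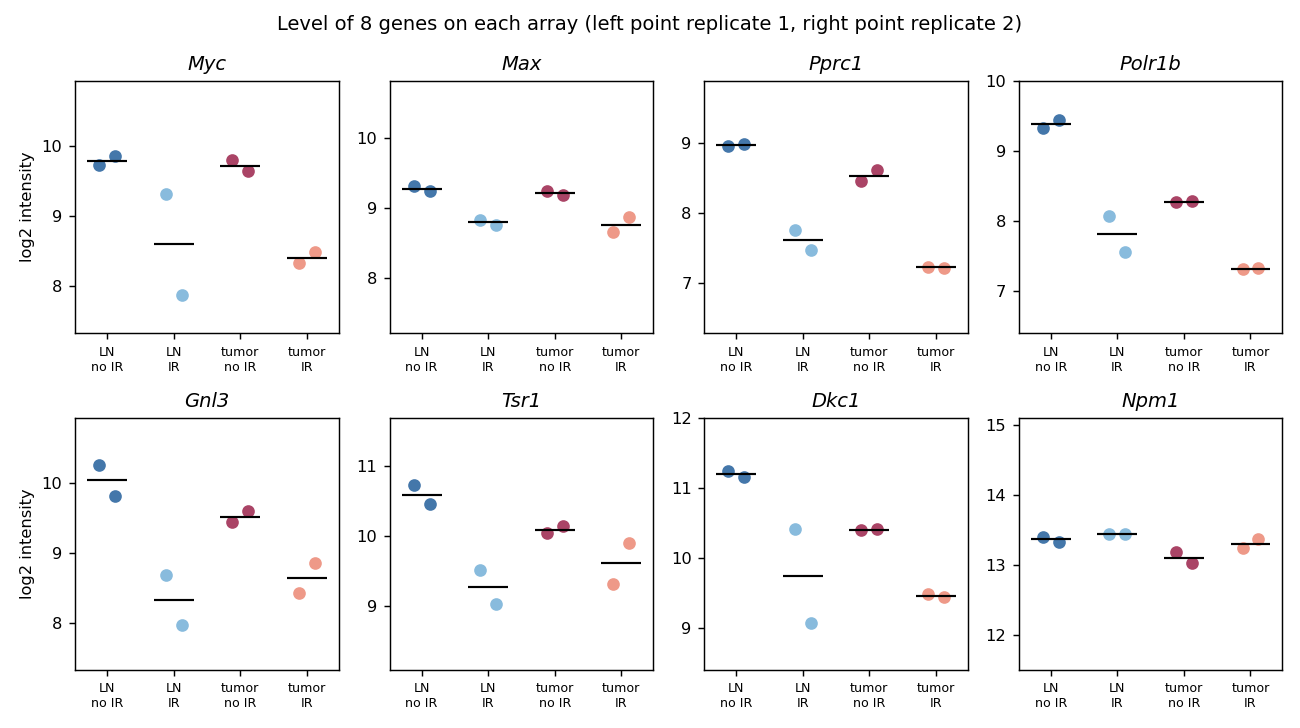
Log2 intensity of 8 genes on each array (points; replicate 1 on the left and replicate 2 on the right of each group) with the group mean (black line), each panel spanning a range of the same size. Polr1b and Pprc1 lie lower on both IR arrays of each tissue, Myc and Dkc1 have a wide gap between the LN arrays with IR, and Npm1 is nearly level.

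Pprc1 encodes a nuclear coactivator of the PGC-1 family, known for raising genes of mitochondrial function in growing cells. It was chosen for being lower after IR, and these values describe that choice. It read 8.95 and 8.98 in LN T cells without IR and 7.76 and 7.48 with IR. Tumor T cells gave 8.45 and 8.61 without IR and 7.23 and 7.21 with IR. The log2 differences were -1.35 and -1.31, and no array with IR overlapped an array without it in either tissue. Of 10 other genes of PGC-1 signaling and mitochondrial transcription, 0 were called by limma after IR in either tissue, and 4 in LN and 1 in tumor T cells had an unadjusted p under 0.05. Their medians were -0.19 in LN and -0.17 in tumor T cells.

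Among RNA polymerase I genes, a catalytic subunit stood out from the rest. Polr1b, which encodes the second largest subunit, read 9.34 and 9.45 in LN T cells without IR and 8.07 and 7.57 with IR. The arrays did not overlap, and Polr1b fell by 1.57 on the log2 scale (SE 0.19, 95% CI -2.01 to -1.13, limma adjusted p = 0.0209), a 2.98-fold lower level. Tumor arrays gave 8.27 and 8.29 without IR and 7.32 and 7.33 with IR. That log2 difference of -0.96 (adjusted p = 0.245) did not pass, although both arrays of each pair agreed closely. Polr1a, the largest subunit, was at -0.62 (LN) and -0.41 (tumor) and did not pass. Ubtf, the factor that holds active ribosomal DNA open, was at -0.73 and -0.79 and did not pass either. Without the second LN array with IR its LN value was -0.22. Polr1c and Polr1d, subunits that polymerase I has in common with polymerase III, were at 0.09 and -0.24 in LN and at 0.0026 and -0.03 in tumor T cells. Rrn3, the initiation factor that recruits polymerase I to its promoter, was at 0.19 and 0.18, the highest log2 difference of any member in LN T cells. The group thus held both the lowest called p and the highest difference of the members in LN T cells.

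Gnl3 and Npm1, which both encode nucleolar proteins, differed in their response. Gnl3 encodes nucleostemin, a GTPase of proliferating cells, and read 10.26 and 9.82 in LN T cells without IR and 8.68 and 7.97 with IR. It fell by 1.71 on the log2 scale (SE 0.28, 95% CI -2.38 to -1.05, adjusted p = 0.0630), a 3.28-fold lower level and the most negative difference of any member. Gnl3 in tumor T cells read 9.44 and 9.60 without IR and 8.44 and 8.85 with IR, a log2 difference of -0.88 that did not pass (adjusted p = 0.297). Npm1, the nucleophosmin chaperone, was the brightest member at 13.02 to 13.44 on all 8 arrays, and differed by 0.07 after IR in LN (adjusted p = 0.834) and by 0.21 in tumor (adjusted p = 0.488). Ncl, encoding nucleolin, was next in brightness and read 12.64 and 12.07 without IR and 12.34 and 11.05 with IR in LN T cells, so the groups overlapped. Nolc1 and Mybbp1a, a snoRNP chaperone and an MYB-binding nucleolar protein, were at -0.71 and -1.09 in LN and at -0.54 and -0.81 in tumor T cells, and none passed. Without the second LN array with IR their LN values were -0.15 and -0.30.

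The snoRNP proteins are parts of the particles that carry out methylation (box C/D) and pseudouridylation (box H/ACA) of ribosomal RNA. All 6 had negative differences in both tissues, and 0 passed. Dkc1, the pseudouridine synthase dyskerin, had the third most negative difference of any member in LN T cells. It read 11.25 and 11.16 without IR and 10.42 and 9.08 with IR (log2 difference -1.46, SE 0.38, adjusted p = 0.171). Without the second LN array with IR that difference was -0.79. Tumor T cells had 10.40 and 10.42 without IR and 9.48 and 9.45 with IR (log2 difference -0.94, adjusted p = 0.319). Both other probe sets of Dkc1 were also lower in LN with IR, at -1.72 (adjusted p = 0.168) and -1.81 (adjusted p = 0.0990, which passes). Gar1 and Nhp2, its partners in the box H/ACA particle, were at -1.01 and -0.93 in LN and at -0.54 and -0.27 in tumor T cells. Gar1 in LN was at -0.44 without the second LN array with IR. The box C/D proteins Nop58, Nop56 and Fbl, the last being the methyltransferase fibrillarin, were at -1.07, -0.63 and -0.35 in LN and at -0.42, -0.74 and -0.29 in tumor T cells. Nop56 was the only one of the 3 with the more negative difference in tumor T cells, a contrast that limma's test of the difference did not call (-0.11, adjusted p = 0.918).

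Of 10 members that act in the small subunit processome or in 18S maturation, 1 fell in LN T cells. Tsr1, a GTPase-like factor of late small subunit assembly, read 10.73 and 10.46 without IR and 9.52 and 9.03 with IR. It fell by 1.32 on the log2 scale (SE 0.25, adjusted p = 0.0894), and this call was lost without the second LN array with IR (-1.07, adjusted p = 0.159). A dimmer probe set of Tsr1 differed by -0.41 (adjusted p = 0.374), so the probe sets disagree in size. In tumor T cells they disagreed in sign, at -0.48 and 0.46, and neither passed (adjusted p = 0.392 and 0.325). Heatr1, which links polymerase I transcription to early processing, read 9.79 and 9.87 without IR and 9.11 and 8.90 with IR in LN T cells. Its difference of -0.83 (adjusted p = 0.0813) met the threshold on p and not the one on size, and its other probe sets were at -0.10 and -0.38. With no limit on size Heatr1 was the fourth member called in LN T cells, against 0.511% of all genes lower. Utp20 was the one member of this group with no negative difference in tumor T cells (0.02), and its LN value rested on the array that stood apart: 9.21 on the first and 7.90 on the second, against 9.22 and 8.99 without IR. Rrp12, the dimmest member, was at -0.72 in LN and -0.45 in tumor T cells, with levels of 6.57 to 7.71.

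By their chosen probe sets, all 9 members of large subunit maturation had negative differences in both tissues, and 0 passed. In LN T cells these ran from -1.15 (Rrp1b) to -0.47 (Wdr12), and in tumor T cells from -0.87 (Nop16) to -0.20 (Wdr12). A dimmer probe set of Noc3l did pass in LN T cells (-1.03, limma adjusted p = 0.0824). Dimmer probe sets of Noc2l, Nop16 and Bop1 were at 0.0091, -0.15 and -0.10 there, and none passed. Bop1, which with Pes1 and Wdr12 forms the PeBoW complex, agreed closely between arrays. It read 10.36 and 10.34 without IR and 9.79 and 9.57 with IR in LN T cells, and 9.93 and 10.06 against 9.27 and 9.14 in tumor T cells. Its differences were -0.67 (adjusted p = 0.130) and -0.79 (adjusted p = 0.237). Rrp1b had the widest gap between the LN arrays without IR, at 10.62 and 9.83. Its LN arrays with IR were further apart, at 9.59 and 8.57. Its value of -1.15 (adjusted p = 0.237) carries both gaps, and was -0.64 without the second LN array with IR. The RNA helicase Ddx21, which acts in polymerase I transcription and in processing, was at -0.80 in LN and -0.999 in tumor T cells, where it read 10.76 and 10.91 without IR and 9.85 and 9.81 with IR (adjusted p = 0.283). By the chosen probe sets that was the second most negative difference in tumor T cells after Myc. A dimmer probe set of Ddx21 was at -1.43 in LN and -0.68 in tumor T cells. Neither passed (limma adjusted p = 0.169 and 0.408), and the probe sets disagree on which tissue had the larger difference.

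Whether IR acted differently in the tissues was tested as the difference of the IR effects, tumor less LN. By limma 0 of 40 members were called, as against 0 of 18193 genes (0%), and 1 member, Tsr1, had an unadjusted p under 0.05 (0.84, adjusted p = 0.782), against 5.63% of all genes. The median was 0.21 against 0.12 over all genes. The sign of that median depended on the LN array that stood apart: it was -0.06 without the second LN array with IR, and 0.53 without the first. For Gnl3, with the largest value of 0.84, the 95% CI ran from -0.10 to 1.78, and for Myc, at -0.11, from -1.47 to 1.25.

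Without IR, ribosome biogenesis genes stood lower in T cells from tumors than in those from LN. Of 40 members, 1 was lower by the full rule and 0 higher, against 1.04% of all genes lower and 4.5% higher. All 40 log2 differences were below 0 (62.8% of all genes), with a median of -0.37 against -0.09 over all genes, and in 30 both tumor arrays lay below both LN arrays (35.2% of all genes). An unadjusted p under 0.05 with a lower level was reached by 13 members, against 7.52% of all genes. Polr1b was the member called, at 8.28 ± 0.01 in tumor and 9.39 ± 0.08 in LN T cells (mean ± SD, n = 2 arrays), a log2 difference of -1.11 (95% CI -1.55 to -0.67, adjusted p = 0.0173). The call rests on 4 arrays: it was lost without the second LN array without IR and without either tumor array without IR, and its difference was -0.89 once arrays were scaled to equal T cell transcripts. With no limit on size Wdr12 (-0.69, adjusted p = 0.0492), Rcl1 (-0.76, adjusted p = 0.0851) and Heatr1 (-0.57, adjusted p = 0.0861) were lower too, 4 members in all against 2.26% of all genes. Dkc1 was at -0.80 and did not pass (adjusted p = 0.346). Rrp1b, Max and Myc lay nearest to 0, at -0.03, -0.06 and -0.07. This comparison and that of IR in LN T cells use the same LN arrays without IR, on which most members had their highest level of all 8 arrays (23 on the first and 14 on the second). Scaling the arrays to equal T cell markers moved the median of all genes by 0.22 and left 31 of 40 members negative. Of other cell types, 13 of 14 macrophage and monocyte and 5 of 11 fibroblast markers were higher and 5 of 9 B cell markers lower in these tumor arrays, and their part in the member values was not tested.

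With IR the order of the tissues turned on the LN array that stood apart. By limma 0 of 40 members were called, against 6.8% of all genes, and 7 had an unadjusted p under 0.05, all with a lower level in tumor T cells, against 8.08% of all genes. Differences below 0 were found for 27 members (42.5% of all genes), with a median of -0.17 against 0.055 over all genes, and 15 members had both tumor arrays below both LN arrays (20% of all genes). Scaled to equal T cell markers, which moved the median of all genes by 0.11, 23 members were negative. With IR, too, 12 of 14 macrophage and monocyte and 6 of 11 fibroblast markers were higher and 4 of 9 B cell markers lower in tumor, and their part was not tested. Nop56 met the threshold on p alone (4.5% of all genes were lower by that rule), at 9.84 and 9.75 in tumor and 10.46 and 10.26 in LN T cells (-0.56, adjusted p = 0.0791). Ddx21 had the lowest value (-0.62, adjusted p = 0.219) and Rrp1b the highest (0.53, adjusted p = 0.444). Other probe sets of these genes had the opposite sign, at 0.53 for Ddx21 and at -0.15 and -0.21 for Rrp1b, and none passed (adjusted p = 0.451, 0.756 and 0.667). The members' median was -0.51 without the second LN array with IR and 0.15 without the first.

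Other genes of the same pathways were read from lists. Of 76 other ribosome biogenesis genes measured, 1 rose and 2 fell in LN T cells after IR, against 143 and 48 of 18193 genes. Differences were negative for 66 of them (49.1% of all genes), with a median of -0.49. Without the second LN array with IR that median was -0.28. In tumor T cells 1 rose and 0 fell, against 17 and 1 of 18193 genes. There 61 differences were negative (40.3% of all genes), with a median of -0.27. Urb2, a factor of large subunit assembly, read 9.16 and 9.37 in LN T cells without IR and 7.99 and 7.28 with IR, and fell by 1.63 on the log2 scale (adjusted p = 0.0442). Wdr75, of the small subunit processome, fell by 1.08 (adjusted p = 0.0987) in LN T cells, a call lost without the second LN array with IR. Krr1, another processome factor, went the other way in both tissues. It read 11.41 and 11.17 without IR and 12.45 and 12.65 with IR in LN T cells, a rise of 1.26 (adjusted p = 0.0258). Krr1 in tumor T cells read 11.65 and 11.51 without IR and 12.97 and 12.92 with IR, a rise of 1.36 (adjusted p = 0.0768). The genes of this list thus resembled the members in their median and not in every gene. Between tissues 0 of the 76 were called without IR, and 23 had an unadjusted p under 0.05, against 3213 of 18193 genes. With IR Ddx49, an RNA helicase, was higher in tumor T cells (1.30, adjusted p = 0.00594).

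The ribosomal proteins themselves, the products that ribosome biogenesis assembles, showed no such shift in LN T cells. Of 44 measured of 78 listed, 0 were called by limma after IR in LN T cells. Their median was 0.09, with 5 negative differences (49.1% of all genes). An unadjusted p under 0.05 was reached by 0 of them, against 2604 of 18193 genes. Likewise 0 were called in tumor T cells, with a median of -0.19 and 36 negative differences (40.3% of all genes). There 2 had an unadjusted p under 0.05, against 3023 of 18193 genes. Between tissues with IR the median was -0.52. An unadjusted p under 0.05 with a lower level in tumor T cells was reached by 27 of 44, against 8.08% of all genes. With no limit on size 16 were lower, against 4.5% of all genes. By the full rule Rps10, of the small subunit, was the one called, lower in tumor T cells (-1.11, adjusted p = 0.0702). That call was lost without the second LN array with IR, where the list had a median of -0.46. These transcripts are among the brightest on the array, with a mean of 11.63 to 12.16 per array. Ribosomal protein genes have many processed pseudogenes, so their probe sets may read near-identical copies.

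**Figure D4:**
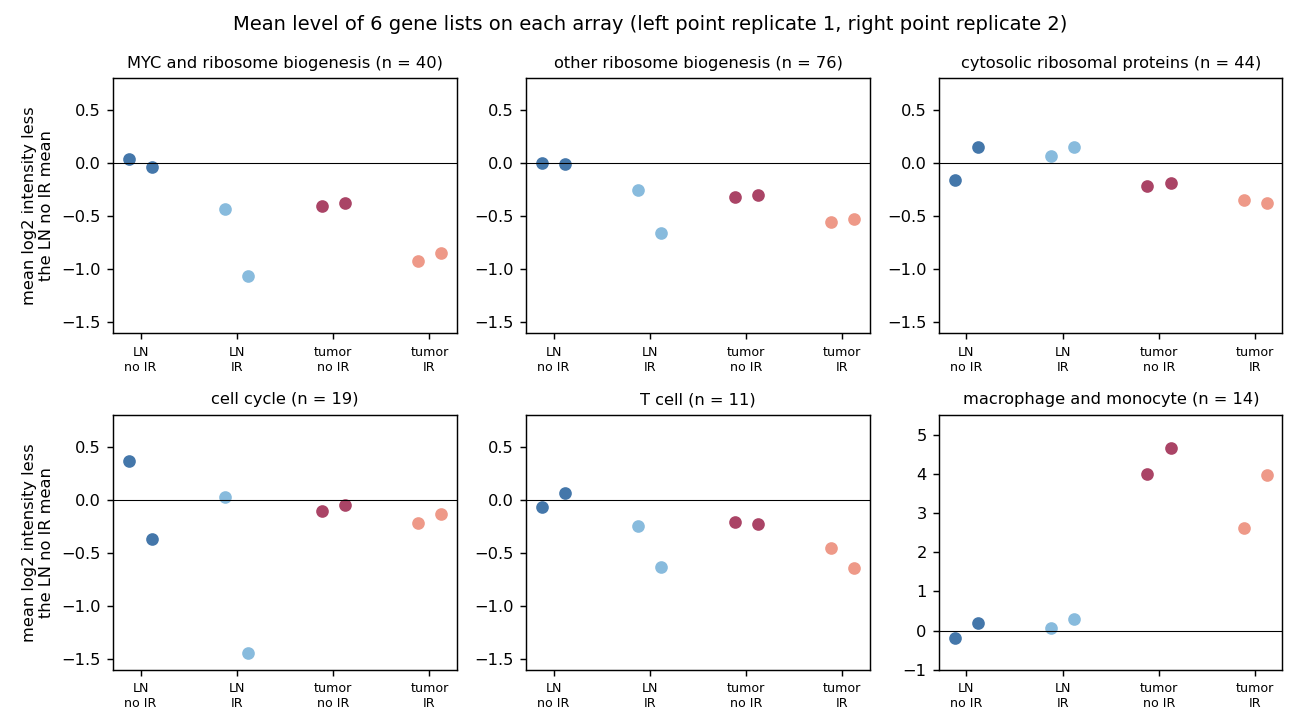
Average log2 intensity of 6 lists of genes by array (points; replicate 1 left, replicate 2 right), relative to the average LN array without IR; the macrophage panel has its own, wider axis and n is the number of genes. The first 2 panels lie lower on all IR arrays than on those without IR in the same tissue, the ribosomal proteins do not in LN, and the cell cycle and T cell lists are lowest of the LN arrays on the second array with IR.

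Of 11 other genes of the MYC network, 1 rose in LN T cells after IR and 0 were called in tumor T cells by limma. In tumor T cells 1 had an unadjusted p under 0.05, against 3023 of 18193 genes. Mxd1, which competes with MYC for MAX, read 8.34 and 8.64 without IR and 10.13 and 9.87 with IR in LN T cells. It rose by 1.51 on the log2 scale (adjusted p = 0.0370) there and differed by 0.09 in tumor T cells (adjusted p = 0.860). The test of the difference between tissues did not pass (-1.43, adjusted p = 0.660). Mxi1, of the same family, was higher in unirradiated tumor T cells than in their LN counterparts (1.98, adjusted p = 0.0487), and Mga, another MAX partner, was lower in tumor T cells with IR (-1.30, adjusted p = 0.00601). Of 23 measured metabolic genes linked to MYC, 0 were called after IR by limma (14 in LN and 9 in tumor T cells had an unadjusted p under 0.05), with medians of -0.41 and -0.24. Tfrc, the transferrin receptor, was higher in tumor T cells with IR (1.78, adjusted p = 0.0760), where the LN arrays read 9.36 and 8.14. Without the second LN array with IR Tfrc was not called. Eif4ebp1, a brake on translation, was higher in tumor T cells without IR (1.12, adjusted p = 0.0142).

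The cell cycle genes depended more on the LN array that stood apart, which had a low level of these genes, than the members did. With all arrays, 18 of 19 measured cell cycle genes had negative differences in LN T cells after IR (49.1% of all genes). Their median was -0.73. Of the 19, 0 were called and 1 had an unadjusted p under 0.05, against 2604 of 18193 genes. Without the second LN array with IR the cell cycle median was -0.11 with 10 of 19 negative, whereas the median of the members was -0.40 with 36 of 40 negative. Without the first the cell cycle median was -1.46 with 15 of 19 called lower, beside -1.01 and 20 of 40 for the members. In tumor T cells the cell cycle list had a median of -0.10 with 10 of 19 negative, beside -0.46 and 36 of 40 for the members. T cell markers were lower in value after IR as well, with a mean in LN of 11.66 and 11.79 where no IR was given and of 11.48 and 11.09 with IR. Tumor arrays averaged 11.51 and 11.50 without IR and 11.27 and 11.08 with IR. When arrays were scaled to equal T cell markers, the all-gene median moved up by 0.44 for LN and by 0.33 for tumor. The members' medians were then -0.28 and -0.13, with 33 and 28 of 40 still negative.

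Members with more than 1 probe set gave a check on the choice of probe set. Over 26 members, 42 further probe sets were measured. Of these, 34 had negative differences after IR in LN T cells, 33 in tumor T cells, 37 between tissues without IR and 25 between tissues with IR. The sign was that of the chosen probe set for 36, 35, 37 and 25 of the 42, and the median of the 42 was -0.46 after IR in LN and -0.32 in tumor T cells.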

How the data were processed

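RNA of sorted T cells pooled from 4 mice was measured on 8 Affymetrix whole-genome mouse arrays, 2 for each of 4 groups. The authors normalized the scans with RMA (version not given in the sources used here), which quantile-normalizes arrays and so removes any change of total RNA, and deposited log2 intensities of 45101 probe sets. These were used as deposited.

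Probe sets were named from the array annotation. limma 3.58.1 (R 4.3.3) fitted 4 group means by least squares on all arrays with empirical Bayes variances (4 residual and 3.13 prior degrees of freedom). Benjamini-Hochberg adjustment ran over 35877 annotated probe sets. The thresholds (adjusted p under 0.1, log2 difference of at least 1) are those of the paper's methods. Its robust fit was an alternative here, and its second method, SAM, was not run. The alternatives are in the closing section.

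Members and lists were chosen with earlier results of these data known. Myc, Max and Pprc1 were always named, with every member past the adjusted p, the extremes of each comparison, the brightest and dimmest members, and the called genes of each list. The number of arrays limits precision.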

Additional observations from a re-analysis of the deposited data

How the results depend on the processing

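The number of members that fell after IR in LN T cells, 3, was 1 at an adjusted p under 0.05 and with array weights, 0 when the LN arrays were fitted alone, 5 with the mean over probe sets or the most variable probe set, and 11 with the robust fit. It ran from 0 to 20 over the 8 fits that each left out 1 array. In tumor T cells the count of 0 became 1 (Myc) with array weights, with the tumor arrays fitted alone and with the robust fit, and was 0 to 1 when arrays were left out. Between tissues without IR the count of 1 became 4 with no limit on size and 0 when scaled to the T cell list, and was 0 to 1 when arrays were left out. With IR the count of 0 became 1 with the most variable probe set and with no limit on size, and was 0 to 1 when arrays were left out. For the difference of the IR effects the count of 0 was 0 to 6.

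Scaling to the T cell list moved the median after IR to -0.28 in LN and -0.13 in tumor T cells. When arrays were left out, the median ran from -1.01 to -0.40 after IR in LN, from -0.51 to 0.15 between tissues with IR, and from -0.057 to 0.53 for the difference of the IR effects, so the last pair changed sign with the LN array left out. With arrays left out, Myc ran from -0.83 to 0.61 in the difference of the IR effects, from -0.91 to 0.53 between tissues with IR and from -0.15 to 0.0024 between tissues without IR, where scaling to the T cell list gave 0.14. The cause of these changes was not tested beyond what each setting leaves out or rescales. Over the alternative settings, 76 counts were equal or close to the main count, 15 were higher and 13 lower. For the medians, 76 moved by less than 0.27, the SD of the members' median level between arrays of a group. Another 6 medians moved further and 2 changed sign. Among values of single members 247 kept their sign and side of the threshold. Of the rest, 12 passed the threshold that had not, and 30 no longer passed it. The other 4, all of Myc, changed sign as given above. Leaving out the dimmer 50% of probe sets removed Rrp12.

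The labels give the groups the same replicate numbers, but whether a number marks an experiment is not stated. Deviations of replicate 1 from the group mean correlated at 0.43 between the LN groups and between the tumor groups. Across tissues they correlated at 0.07 and 0.01 for LN without IR against tumor, and at -0.13 and -0.14 for LN with IR against tumor. The numbers were not taken to pair the samples, since no label ties them to an experiment. The block below is an offset common to both tissues, so pairing within a tissue was not tested. With the replicate number as a block, 2 members fell after IR in LN T cells (the value for Tsr1 was adjusted p = 0.123), 1 was called between tissues without IR, and 0 in the other comparisons. With the numbers of the LN arrays crossed, an alternative chosen after seeing the data, the counts were 4, 1 and 0.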
